A study of Mus musculus with 6 samples.

Results

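The cytosolic ribosomal proteins are the protein components of the ribosomes that translate messenger RNA outside mitochondria. Their genes were taken as the protein-coding genes of GENCODE vM21 whose names begin with Rpl or Rps followed by a number, together with Rplp0, Rplp1, Rplp2 and Rpsa, and without the Rps6k kinases and Rps19bp1. This gave 91 of 55536 annotated genes and 509 of 141862 annotated transcripts. Of the 91 genes, 43 encode proteins of the large subunit, 31 proteins of the small subunit, 3 proteins of the stalk and 8 paralogs of these. The other 6 are annotated as protein-coding although named as pseudogene copies, such as Rps12-ps3.

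The study profiled total RNA of RAW264.7, a mouse macrophage line, after treatment with titanium (Ti) particles, a model of the wear debris shed by metal implants. All 6 libraries came from this line, labelled with the strain background C57BL/6. The controls were 3 libraries of cells given phosphate-buffered saline (PBS, Ctrl), and 3 libraries were of cells given Ti particles. The labels state no dose or exposure time and do not say whether replicates were separate cultures. The spread between libraries that the p-values rest on may therefore be technical. Of 10 macrophage markers 9 were above 1 CPM (counts scaled to library size), Mertk being the exception, and the summed level of each list of T and B cell, fibroblast, epithelial and endothelial markers was at most 0.873 CPM in any library. Of 6 osteoclast markers 4 were above 1 CPM, and they summed to 212 to 382 CPM in Ctrl and 236 to 623 CPM in Ti. The libraries held 37686020 to 60242937 rescaled counts, that is, deposited counts corrected for the genomic span of each transcript.

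A ribosome contains 1 copy of most of these proteins, and cells make them in near-equal amounts, so their messenger RNAs are among the most abundant and most evenly expressed of a cell. In vertebrates these messages typically begin with a C followed by a run of pyrimidines, the 5′ terminal oligopyrimidine (TOP) motif, through which mTOR signalling and the protein Larp1 control their translation. Ribosomal protein genes have also left many processed pseudogenes, intronless genomic copies of the spliced message, whose sequences lie close to those of the parent genes.

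The start sequences of the transcripts on which the results turn are shown first, from GENCODE vM21 on GRCm38, with the leading run of pyrimidines in capitals. These genes were chosen after their values were seen. The first 2 are starts of Rpl30, which had the lowest fold change of the 86 genes tested, and the others are 2 pairs of a gene and its paralog.
Rpl30 ENSMUST00000009039: CCTTTCTCgctccccggccatctt
Rpl30 ENSMUST00000079735: gatcagcggcgggtggacagagat
Rps27 ENSMUST00000197361: CCTTTCCggcggtgacgacctccc
Rps27l ENSMUST00000040917: gcctctatcccggaagttgctgag
Rpl7 ENSMUST00000058437: CCCagagctgacgaggtgtcccca
Rpl7l1 ENSMUST00000078286: Cgcagtagctgaagcaccggaaag
They lie at chr15:34443199-34443222 and chr15:34443617-34443640 on the minus strand for Rpl30, chr3:90213625-90213648 (minus) for Rps27, chr9:66946086-66946109 (plus) for Rps27l, chr1:16104639-16104662 (minus) for Rpl7 and chr17:46782633-46782656 (minus) for Rpl7l1, each in the first exon of the transcript. The Rpl30 transcript ENSMUST00000009039 opened with 8 pyrimidines and Rps27 with 7. Rps27l opened with none, and Rpl7 and Rpl7l1 opened with 3 and 1.

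A start of C followed by at least 4 pyrimidines was searched for on the transcript strand. For each gene the coding transcript with the highest mean rescaled count, not divided by length, was used. It was present in 11 of 86 ribosomal protein genes (12.8%) and in 260 of 11199 protein-coding genes tested (2.32%). In the RefSeq promoter windows (250 bases before and 50 after each start, GRCm38.p6), matched for 65 of the 91 genes, it lay exactly at the start in 21.5% of ribosomal protein genes and 3.01% of all genes. When it could begin within 5 bases of the start, the shares were 46.2% and 21.2%. The share therefore changed with the source of the start and with the window, and a missing match says only that these letters are not at the annotated position.

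Levels per length were compared next, as rescaled counts over exon length, scaled to the same total in each library. The 86 tested genes had a median of 601 and ranged from 3.90 for Rpl29 to 3258 for Rplp1, the stalk protein that helps recruit elongation factors. Rplp1 lay between 3038 and 3435 in the 6 libraries and was above every other ribosomal protein gene in each. Next came Rps15 with a mean of 1848, Rpl4 with 1731, Rps29 with 1604, Rps26 with 1441, Rps6 with 1430 and Rpsa with 1423, and neighbours in this order had overlapping ranges over the libraries. Of the 86 genes 52 lay between 500 and 2000, and 13 lay under 100. The small subunit (median 628, n = 31) and the large subunit (median 625, n = 43) had similar medians, and the 3 stalk genes had a median of 1135.

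**Figure D1:**
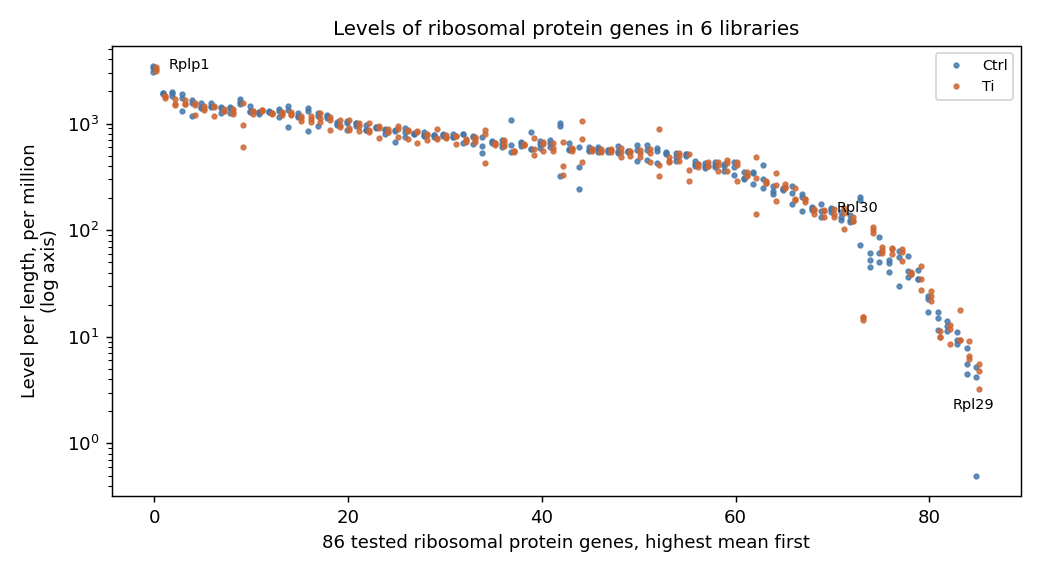
Level per length, scaled to the same total (log axis), of the 86 tested ribosomal protein genes in order of their mean, with 3 Ctrl and 3 Ti libraries as points. Rplp1 stands at the top with a mean of 3258 and Rpl29 at the bottom with 3.90, and the Ctrl and Ti points of Rpl30 do not overlap.

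The 5 genes left out by the filter on low counts were Rpl10l, Rpl39l and Rpl36-ps4, which were at 0 in all 6 libraries, Rpl9-ps1, which did not exceed 0.348 CPM, and Rpl3l. Rpl3l, the form of Rpl3 known from heart and skeletal muscle, was at 0 in the 3 Ctrl libraries and at 0.472, 0.589 and 0 CPM in the Ti libraries. A count of 0 allows up to 3 counts, which is 0.0498 to 0.0796 CPM of unscaled library totals and covers counting error only. Rpl10l and Rpl39l are known from the testis.

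Summed over all 91 genes, ribosomal protein messages made 39342, 41305 and 34866 CPM in Ctrl replicates 1, 2 and 3, and 33727, 41013 and 34705 CPM in Ti replicates 1, 2 and 3. The groups overlapped, with means of 38504 ± 3300 and 36481 ± 3955 CPM (SD, n = 3 each). Between libraries with the same replicate number the Ti sum was lower by 5615, 293 and 161 CPM, so all 3 differences had 1 sign and most of their size came from replicate 1. The libraries differed within each group in the same way for most of the genes: 61, 71 and 22 of the tested genes were above their own mean in the Ctrl libraries and 17, 69 and 14 in the Ti libraries. Histone gene sums (30279, 31038 and 26159 CPM in Ctrl, 26993, 30598 and 24443 CPM in Ti) and the mitochondrial share of counts (3.40%, 3.04% and 2.13%, then 2.70%, 3.19% and 2.501%) were low in most of the same libraries, and their part in the result was not tested. Per length, the ribosomal protein genes made 5.90%, 6.16% and 5.76% of all levels in Ctrl and 5.71%, 5.64% and 5.64% in Ti. On that scale the groups did not overlap, by a margin between Ctrl replicate 3 and Ti replicate 1 that was smaller than the range within Ctrl. In bulk RNA, fewer cells with the message and less of it per cell cannot be told apart.

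**Figure D2:**
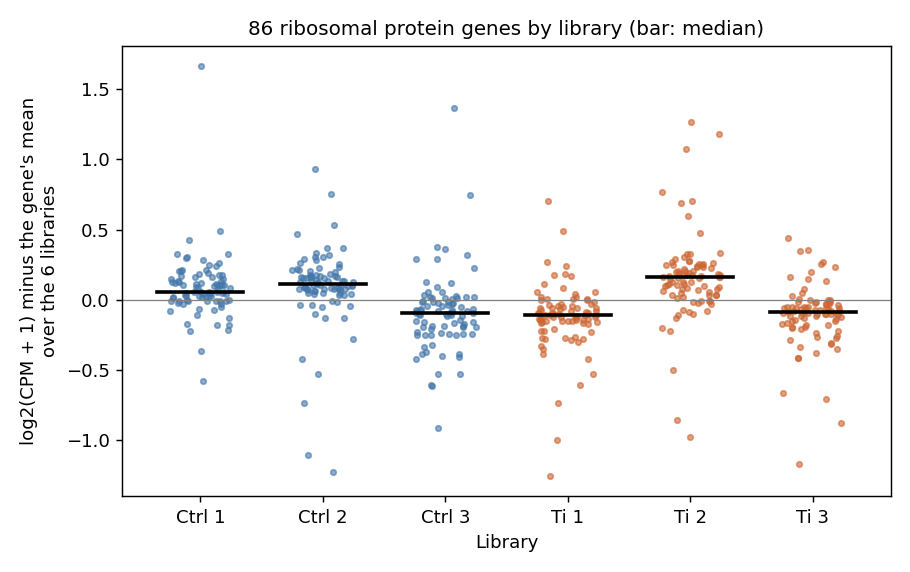
Each point is 1 of 86 ribosomal protein genes, as its log2(CPM + 1) minus its mean over the 6 libraries, and the bar is the median of a library. Medians are above 0 in Ctrl 1, Ctrl 2 and Ti 2 and below 0 in Ctrl 3, Ti 1 and Ti 3, so libraries of both groups lie on both sides.

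Between Ti and Ctrl, no ribosomal protein gene passed an adjusted p of 0.05 in edgeR's quasi-likelihood test, with Benjamini-Hochberg adjustment over 15376 genes: 0 of 86 were higher (0.013% of all genes) and 0 were lower (0.013%), where 0.026% of all genes passed in either direction. At an unadjusted p under 0.05, 2 genes were higher (3.42% of all genes) and 2 were lower (3.34%), against 6.76% of all genes in either direction. In 2 genes all Ti libraries were above all Ctrl libraries (6.63% of all genes), and in 5 all were below (6.71%). As shares of the 86 genes, all of these counts were below the shares of all genes, and the differences were not tested. The log2 fold change was above 0 in 25 genes and below 0 in 61, with a median of -0.05 against 0.01 for all genes tested. Below 0 were 7547 of all 15376 genes tested, and 969 of the 1919 with a mean of at least 100 CPM. Within 0.25 of 0 lay 71 of 86 ribosomal protein genes, 8900 of all genes tested and 1503 of those 1919. The fold change was beyond 1 in 2 ribosomal protein genes, Rpl30 and Rpl7l1, and their median standard error over the 86 was 0.15. In simulated data of this design, with 100 genes changed by each factor among 15376, edgeR recovered 3% of 2-fold and 66% of 4-fold changes. The changed genes were not drawn from those of lowest level. Over the genes that could be drawn, most changes of 2-fold or less would thus go uncalled. The median standard error over all genes tested was 0.27, above the 0.15 of the ribosomal protein genes. Recovery for ribosomal protein genes alone was not tested.

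Of the large subunit, 34 of 43 genes had a fold change below 0 (median -0.05), and Rpl30 stood apart. Rpl30, a protein of the large subunit that lies near its interface with the small one, is at chr15:34440505-34443640 on the minus strand. It measured 117.5, 47.4 and 95.6 CPM in Ctrl and 14.7, 18.0 and 15.6 CPM in Ti. All Ti libraries were low and close together, the Ctrl libraries were 2.48-fold apart at most, and the groups did not overlap. The log2 fold change was -2.43 ± 0.34 (SE), with an adjusted p of 0.157 in edgeR. On deposited counts without the span correction, Rpl30 measured 62.7, 21.7 and 51.2 CPM in Ctrl and 3.65, 4.84 and 3.88 CPM in Ti, and its log2 fold change was -3.45 ± 0.44 (adjusted p = 0.158 in edgeR). DESeq2, run as an alternative, called it lower (adjusted p = 2.52e-08), on the corrected counts, in a test that called 0.839% of all genes lower and only this one among the ribosomal protein genes.

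The size of the Rpl30 difference varied between its 6 annotated transcripts. The spliced coding transcript ENSMUST00000009039, with 4 exons, had rescaled counts of 4369, 1026 and 2537 in Ctrl and 134, 160 and 141 in Ti. ENSMUST00000079735, which starts further upstream and has 5 exons, had 1851, 139 and 673 in Ctrl and 0 in each Ti library, at least 241.5-fold lower against a floor of 3 counts in each library. Ctrl replicate 1 carried much of that bound, which was 138.8-fold without it. The bound covers counting error only. It does not cover how estimated counts were divided between transcripts that share exons, as ENSMUST00000009039 and ENSMUST00000079735 do. Both starts thus had fewer counts in Ti, the one with a pyrimidine run and the one without. The short coding transcript ENSMUST00000142643 (72.1, 31.7 and 58.2 in Ctrl) and the retained-intron transcript ENSMUST00000136653 (179, 42.5 and 118) were also at 0 in all Ti libraries. The longer retained-intron transcript ENSMUST00000135417, in contrast, had 1043, 658 and 592 in Ctrl and 539, 502 and 587 in Ti, and the groups did not overlap by a small margin. No transcript of any ribosomal protein gene passed the adjusted threshold (0 of 388 tested, lowest adjusted p 0.142 in edgeR, where 0.00481% of all transcripts passed as higher, 0.0024% as lower and 0.00721% in either direction). At an unadjusted p under 0.05, 3 were higher (2.25% of all transcripts) and 9 lower (2.05%), and 4 of those lower belong to Rpl30.

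Annotated pseudogene copies of Rpl30 were measured in the same libraries, and they were examined after the Rpl30 values had been seen. A copy was counted where it held at least 25% of the 31-base words of the coding transcript of a gene, which gave 10 processed pseudogenes for Rpl30. The most abundant, Gm12191, measured 234, 326 and 178 CPM in Ctrl and 290, 343 and 235 CPM in Ti, above Rpl30 itself in every library. Rpl30-ps9, the next in level, measured 36.3, 41.4 and 29.6 CPM in Ctrl and 35.6, 49.6 and 36.3 CPM in Ti. Rpl30-ps8 measured 11.3, 22.1 and 7.89 CPM in Ctrl and 21.8, 30.9 and 21.4 CPM in Ti. It was less abundant than Rpl30-ps9 and Rpl30-ps10 in every library. The groups overlapped for Gm12191, Rpl30-ps9, Rpl30-ps10 and Rpl30-ps8. Ctrl replicate 2, with the lowest Rpl30 of the controls, had the highest control value of each of these copies. That library also had the highest control sum over all ribosomal protein genes, at 41305 CPM against 39342 CPM in Ctrl replicate 1. Over ribosomal protein pseudogenes it had 6940 CPM against 6831 CPM. Both sums differed less between these libraries than Gm12191 did (326 against 234 CPM). Whether high copies there were particular to Rpl30 was not tested.

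Summed with its 10 copies, Rpl30 measured 431, 475 and 335 CPM in Ctrl and 393, 489 and 342 CPM in Ti. The groups overlapped, and the log2 fold change was -0.02 ± 0.19 (edgeR, adjusted p = 0.999). It was -0.02 also when copies sharing at least 10% were added. This value depended on the span correction, which lowers the counts of a spliced gene and leaves an intronless copy as deposited. On the deposited counts without it, Rpl30 and its copies together measured 105.6, 80.2 and 83.8 CPM in Ctrl and 55.1, 68.6 and 48.5 CPM in Ti. There the groups did not overlap, and the log2 fold change was -0.65 ± 0.18 (edgeR, adjusted p = 0.590). Rpl30 itself made 12.5% of the sum over the libraries with the correction and 33.5% without it. Which locus the reads of Rpl30 and its copies came from cannot be told from these values, and its part in the Rpl30 difference was not tested.

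**Figure D3:**
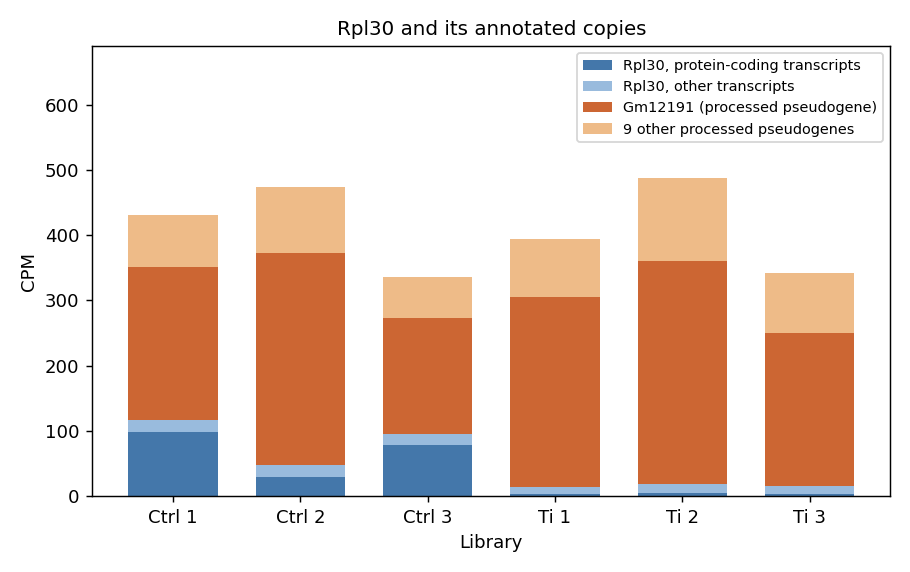
Stacked CPM of Rpl30 (protein-coding and other transcripts), of Gm12191 and of the other 9 annotated copies in each library, after the span correction. The Rpl30 parts are 117.5, 47.4 and 95.6 CPM in Ctrl and 14.7, 18.0 and 15.6 in Ti, while the full bars of the 2 groups overlap.

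The same sums were formed for all genes, with each copy assigned only to the gene that had the highest share of its words in that copy. In this way 68 of the 91 were assigned 346 copies in all, and 23 were assigned none. Being assigned none does not mean a unique sequence. Rps12 and Rpl10 were assigned none, though 83.8% and 85.7% of their words are also in other genes. Several genes that looked nearly silent alone had most of their sum in copies. Rpl29 had a mean of 2.36 CPM alone and 515 CPM with 13 copies, Rpl26 had 5.09 and 583 CPM with 4 copies, and Rps2 had 25.7 and 1387 CPM with 30 copies. Among the 77 subunit and stalk genes, the number under 100 CPM was 11 alone and 5 with copies, and the median level was 448 and 557 CPM. The number with a log2 fold change beyond 0.25 in either direction was 14 alone and 7 with copies. The median log2 fold change was -0.05 on both scales. With copies, 1 gene was higher at an unadjusted p under 0.05 (3.42% of all genes) and 0 were lower (3.38%), and on deposited counts without the span correction 1 was higher (2.9%) and 1, Rpl30, was lower (3.13%).

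**Figure D4:**
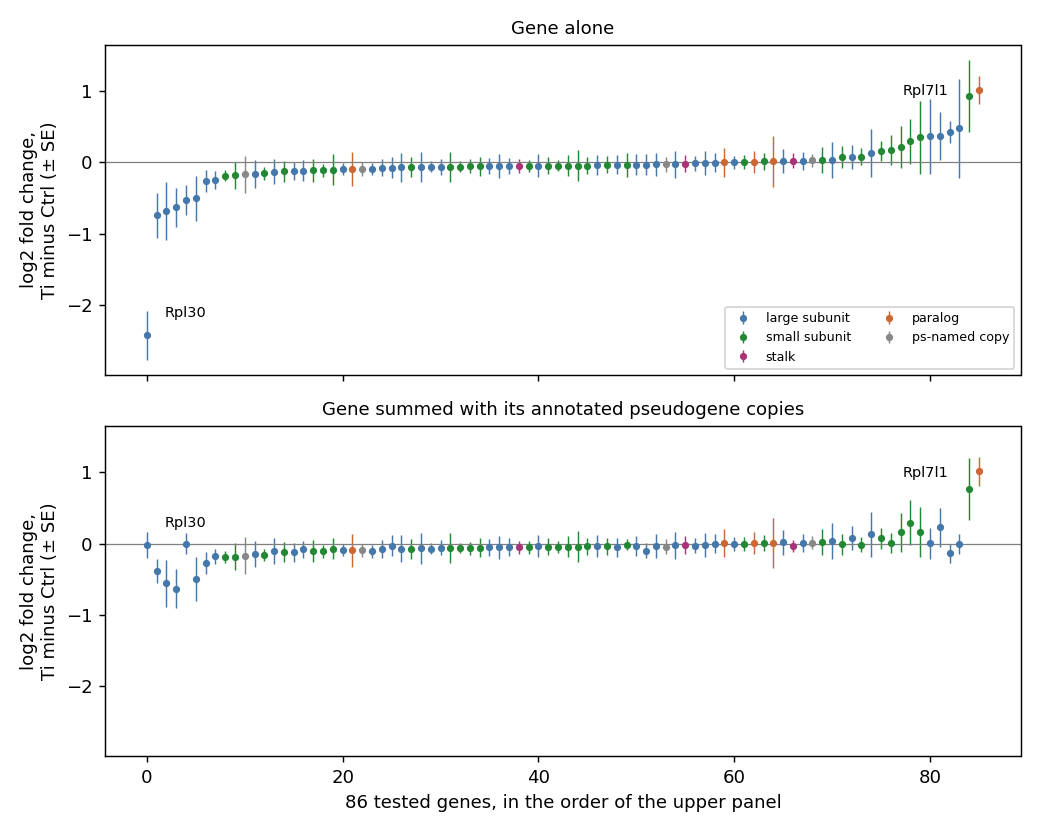
Log2 fold change of Ti over Ctrl with its SE for the 86 tested genes, alone (above) and summed with their annotated copies (below), in 1 order and coloured by class, after the span correction. Rpl30 is at -2.43 above and -0.02 below, and Rpl7l1, which has no copy, stays at 1.02 and 1.01.

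Rpl26, which lines the exit tunnel and is known to bind the p53 message, measured 6.52, 4.84 and 6.69 CPM in Ctrl and 4.12, 4.58 and 3.81 CPM in Ti. Its groups did not overlap, with a log2 fold change of -0.53 ± 0.21 (edgeR, adjusted p = 0.727), and with copies the value was 0.00. Rpl17, also at the exit tunnel, measured 56.6, 53.7 and 39.7 CPM in Ctrl and 65.7, 70.0 and 66.1 CPM in Ti. All Ti libraries were above all Ctrl libraries, with 0.43 ± 0.16 (edgeR, adjusted p = 0.684), and with its 7 copies the value was -0.14. The direction for Rpl17 thus turned when copies were added.

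Rpl15 measured 482, 518 and 439 CPM in Ctrl and 178, 253 and 428 CPM in Ti, with -0.74 ± 0.31 (edgeR, adjusted p = 0.744). Its groups did not overlap, but Ti replicate 3 lay close to the lowest control. Summed with its 4 copies, Rpl15 measured 851, 906 and 731.0 CPM in Ctrl and 493, 676 and 731.4 CPM in Ti. On that scale the groups overlapped, and the log2 fold change was -0.39 ± 0.17. Rpl8, a protein close to the peptidyl transferase centre, measured 1269, 1137 and 1054 CPM in Ctrl and 675, 499 and 1059 CPM in Ti. Here too Ti replicate 3 was at the level of the controls, and the groups overlapped (-0.63 ± 0.27). Without Ti replicate 3 the log2 fold changes of the genes alone were -1.15 for Rpl15 and -0.97 for Rpl8. Their adjusted p-values were 0.248 and 0.258 in edgeR. Rpl13a, a member of the GAIT complex that silences inflammatory messages in myeloid cells, measured 384, 858 and 419 CPM in Ctrl and 369, 427 and 373 CPM in Ti, and only Ctrl replicate 2 was high. Rpl6 was uneven in both groups, with 303, 767 and 763 CPM in Ctrl and 273, 519 and 349 CPM in Ti.

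Rpl5 and Rpl11, which bind Mdm2 together with 5S ribosomal RNA when ribosome assembly is disturbed, had overlapping groups. Rpl5 measured 810.5, 833 and 810.2 CPM in Ctrl and 712, 894 and 743 CPM in Ti (-0.06 ± 0.11). Rpl11 measured 491.5, 527 and 458.5 CPM in Ctrl and 423, 531 and 549 CPM in Ti (0.02 ± 0.13). Rpl3 measured 757, 782 and 681 CPM in Ctrl and 537, 691.5 and 641 CPM in Ti, with -0.25 ± 0.12 and overlapping groups. Over its protein-coding transcripts alone the log2 fold change of Rpl3 was 1.66, the opposite direction.

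Of the small subunit, 20 of 31 genes had a fold change below 0 (median -0.05), and 28 lay within 0.25 of 0. Rps20 measured 262.5, 269.7 and 244 CPM in Ctrl and 227, 229.5 and 226 CPM in Ti, without overlap and with -0.19 ± 0.08 (edgeR, adjusted p = 0.758). Rps9 measured 842, 828 and 737.5 CPM in Ctrl and 727, 704 and 728 CPM in Ti, again without overlap (-0.16 ± 0.09). The 3 Ti values of each of these genes lay closer together than the Ctrl values.

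Rps4x, the X-linked form of Rps4, had the highest fold change of the small subunit and a wide spread within both groups. It measured 455, 173 and 258 CPM in Ctrl and 292, 897 and 505 CPM in Ti, with 0.94 ± 0.51 and overlapping groups. Without Ti replicate 2 its log2 fold change was 0.43. Rps6, the substrate of the S6 kinases, measured 1030, 1046 and 1032 CPM in Ctrl and 932, 1072 and 994 CPM in Ti (-0.05 ± 0.09). Rps3, which also acts in DNA repair and with NF-kappaB, had -0.04 ± 0.12, and Rps19, mutated in Diamond-Blackfan anaemia, had 0.00 ± 0.10. Rpsa, known also as the laminin receptor, had -0.13 ± 0.15. For these 4 genes the groups overlapped.

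The stalk genes had overlapping groups. Rplp0, which anchors the stalk, measured 1030, 1260 and 1182 CPM in Ctrl and 1210, 1203 and 1116 CPM in Ti (0.02 ± 0.10). Rplp1 had -0.02 ± 0.12 and Rplp2 had -0.05 ± 0.09. A p that misses the threshold does not show that the groups are equal, and these standard errors limit what could be seen.

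Among the paralogs, Rpl7l1 had the highest fold change of all ribosomal protein genes. Rpl7l1, a relative of Rpl7 that is known from early precursors of the large subunit, is at chr17:46773907-46782672 on the minus strand. It measured 117.6, 102 and 72.2 CPM in Ctrl and 193, 223 and 174.5 CPM in Ti. Every Ti library was above every Ctrl library, with a log2 fold change of 1.02 ± 0.20 and an adjusted p of 0.298 in edgeR. DESeq2 called it higher (adjusted p = 0.00431, 1.06% of all genes called higher), and no annotated copy met the 25% limit. Leaving out each library in turn gave values between 0.85 and 1.17. Rpl7 itself measured 599, 517 and 376 CPM in Ctrl and 564, 756 and 315 CPM in Ti, with overlapping groups (0.13 ± 0.34). Per length, the ratio of Rpl7l1 to Rpl7 was 0.0819, 0.0843 and 0.0856 in Ctrl and 0.134, 0.114 and 0.225 in Ti, and the groups did not overlap. However, 61.4% of the words of the coding transcript of Rpl7 are also in other genes, and 48.5% are in the processed pseudogene Gm12174. The level of Rpl7, and with it this ratio, is therefore uncertain.

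In the other pairs measured in both members, the ratios of the groups overlapped. Rps27l, a p53-responsive relative of Rps27, was 7.87-fold to 17.3-fold above Rps27 per length in the 6 libraries. However, 91.0% of the 31-base words of Rps27 are also in Rps27rt, which is at 130.8, 181.5 and 152 CPM in Ctrl and 243, 135 and 90.7 CPM in Ti, so the level of Rps27 is uncertain. Sharing was also high in the next 2 pairs, whose ratios are uncertain for the same reason: 66.0% of the words of Rpl36a are in Rpl36a-ps1, 61.1% of those of Rpl36al in Gm49383 and 58.6% of those of Rpl22l1 in Gm15421. Rpl22l1 was 1.22-fold to 1.82-fold above Rpl22, and Rpl36al was 1.08-fold to 1.46-fold above Rpl36a per length. Between Ti and Ctrl the log2 fold change was -0.09 ± 0.23 for Rps27l, 0.00 ± 0.20 for Rpl22l1 and 0.01 ± 0.15 for Rpl36al. The 4 tested genes named as pseudogene copies all lay within 0.25 of 0.

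Fau and Rack1, proteins of the mature ribosome that the naming rule does not take, had overlapping groups, with log2 fold changes of -0.05 and -0.02. None of the genes in the lists below passed an adjusted p of 0.05 in edgeR in either direction. Translation factors and other genes with known TOP messages (18 tested) had a median of -0.07, with 13 below 0. Eif3f, a subunit of initiation factor eIF3, measured 275, 256.1 and 252 CPM in Ctrl and 229.8, 208 and 218 CPM in Ti (-0.25 ± 0.09, adjusted p = 0.635 in edgeR). Eef1a1, the elongation factor that delivers transfer RNA, measured 492, 3827 and 673 CPM in Ctrl and 4008, 3957 and 4098 CPM in Ti, so Ctrl replicate 2 was near the Ti level and the other controls were far below it.

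Ribosome assembly factors had 31 of 38 genes above 0 and a median of 0.08, beside 7829 of 15376 above 0 and a median of 0.01 for all genes tested. Nop58, a core protein of the box C/D particles, measured 39.8, 69.1 and 58.1 CPM in Ctrl and 199, 69.2 and 88.8 CPM in Ti (1.09 ± 0.44), with Ti replicate 2 at the level of Ctrl replicate 2. Wdr43 had 0.88 ± 0.33, and Pes1, of the PeBoW complex, had -0.42 ± 0.14. RNA polymerase I and its factors (15 tested) had a median of 0.01, genes of ribosome rescue and quality control (13 of 15 tested) 0.02, and partners of ribosomal proteins outside the ribosome (8 tested) -0.01.

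Regulators of the translation of these messages (20 tested) had a median of -0.06. Among them Myc, a transcription factor that drives ribosome production, measured 5.877, 11.02 and 6.999 CPM in Ctrl and 30.34, 22.85 and 22.75 CPM in Ti. The groups did not overlap, with 1.67 ± 0.28 and an adjusted p of 0.228 in edgeR. Larp4 had 0.46 ± 0.18 and Rps6ka1, a kinase of ribosomal protein S6, had -0.26 ± 0.08, each without overlap and with adjusted p-values of 0.721 and 0.607.

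**Figure D5:**
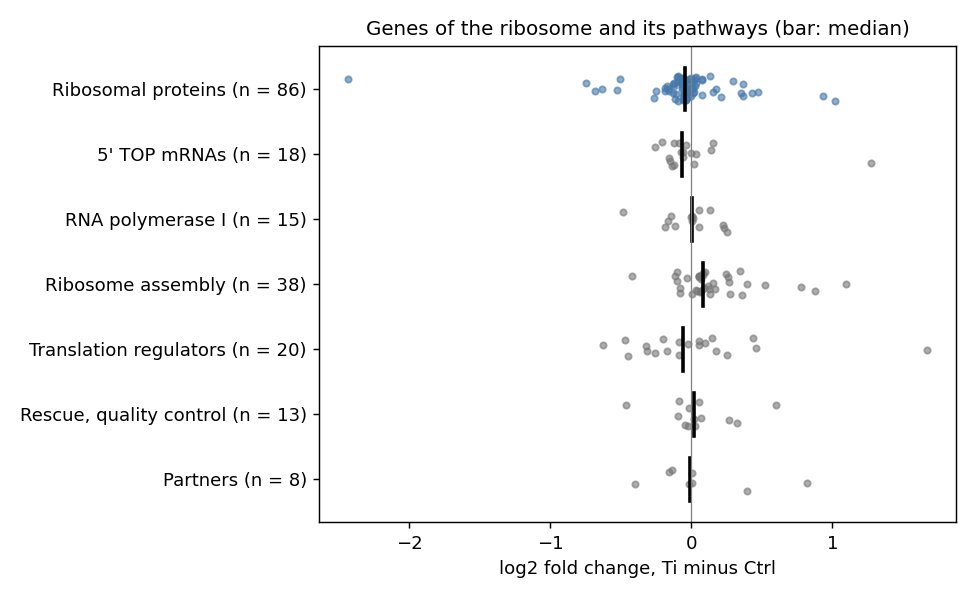
Log2 fold change of Ti over Ctrl for the tested ribosomal protein genes and for the genes of 6 related lists, with the median of each as a bar. The medians lie between -0.07 and 0.08, and the points farthest out are Rpl30 at -2.43 and Myc at 1.67.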

How the data were processed

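Total RNA of 6 RAW264.7 libraries was sequenced, and groups were taken from the labels. The authors deposited estimated counts per transcript, as whole numbers in 187351 rows a library, and the submitters' processing notes name HISAT2, StringTie and the build mm9. The 141862 annotated rows match GENCODE vM21 (GRCm38), which was used for names and coordinates. The 45489 assembled rows (36.9% to 51.2% of totals) were not used here.

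Deposited values grew with genomic span, so each was multiplied by exon length over span, an approximate correction, and gene sums were rounded. Tests used edgeR 4.0.16 in R 4.3.3 (quasi-likelihood, TMM, filterByExpr). Plots were drawn with matplotlib 3.10.9. The members and lists were chosen with earlier results of these data known. Named members were up to 8 of each direction by p, the 6 highest and 3 lowest per length, stalk genes, paralog pairs and genes with roles outside the ribosome, and some results are not reported here. Pseudogene sums, with and without the span correction, the class of copy-named genes, and leaving out libraries for transcripts were added after values were seen.

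Same-numbered libraries deviated together from their group means (r = 0.110, 0.144 and 0.266 across genes, against -0.170 to 0.0402 for other pairs), a pairing that the labels do not state. Over the ribosomal protein genes alone, r was -0.0740, 0.0695 and 0.256, against -0.175 to 0.108 for other pairs, so there only number 3 exceeded the other pairs. The main fit has no block, and the replicate block was run as an alternative. No 2 libraries agreed within sampling noise. The tests were checked on simulated data.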

Additional observations from a re-analysis of the deposited data

How the results depend on the processing

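The counts of ribosomal protein genes past the threshold were 0 higher and 0 lower in edgeR under every alternative run, and 0 for transcripts. These runs included the replicate block and leaving out each library. Over all genes, edgeR called from 0 of 15376 with the replicate block to 13 of 15730 (0.0826%) without Ti replicate 3. With so few calls, counts of 0 do not show that the result is stable. DESeq2 was the exception, with 1 higher and 1 lower, in a test that called 1.9% of all genes. The replicate block, under which no gene at all passed, gave -2.34 for Rpl30 and 1.04 for Rpl7l1. Leaving out 1 library gave medians of the log2 fold change from -0.14 (without Ti replicate 2) to 0.00 (without Ctrl replicate 2), and log2 ratios of summed CPM from -0.172 to -0.0256, so the slight excess of values below 0 depended on single libraries. Rpl30 stayed below 0 throughout, from -2.15 to -2.73 without single libraries, with its lowest adjusted p of 0.0548 (edgeR) without Ctrl replicate 2.

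Of 40 named genes tested, 24 changed sign under at least 1 alternative (78 values, 45 of them without a library), and 4 of these, Rpl3, Rpl17, Rpl18 and Rpl26, had been beyond their standard error. The cause was not tested. Values without single libraries ranged from -0.0613 to 0.0443 for Rpl10, -0.0429 to 0.131 for Rpl11, -0.00685 to 0.585 for Rpl18, -0.0958 to 0.0074 for Rpl21, -0.123 to 0.151 for Rpl22, -0.178 to 0.132 for Rpl22l1, -0.0178 to 0.881 for Rpl29 and -0.367 to 0.686 for Rpl35a. They ranged from -0.188 to 0.0905 for Rpl36a, -0.100 to 0.105 for Rpl36al, -0.236 to 0.0794 for Rpl39, -0.181 to 0.412 for Rpl7, -0.0569 to 0.087 for Rplp0, -0.114 to 0.0448 for Rplp1 and -0.0624 to 0.0855 for Rps19. For Rps26 they ranged from -0.217 to 0.0903, for Rps27l from -0.292 to 0.0514, for Rps29 from -0.240 to 0.0766, for Rps3 from -0.148 to 0.0264 and for Rpsa from -0.259 to 0.0128.

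Other changes of sign were Rpl36al -0.00367 and Rps19 -0.00587 without a filter, Rpl22l1 0.00567 and Rpl10 0.00641 with a mean of at least 50 counts, Rpl22l1 0.00254 and Rpl10 0.00466 with DESeq2's size factors, and Rpl22l1 0.00247 and Rpl10 0.00462 with its test. Library totals gave Rpl36al -0.00417 and Rps19 -0.00757, and the replicate block gave Rpl22l1 0.0217 and Rps19 -0.00056. Unrescaled counts gave Rpl22 0.00031 and Rpl36al -0.00365. Protein-coding transcripts gave Rpl3 1.66, Rps27 0.247, Rpl36a 0.00283 and Rpl10 0.0117. Sums with copies gave Rpl17 -0.138, Rpl26 0.00053, Rpl29 -0.00252, Rplp0 -0.0368, Rpl22l1 0.00284 and Rps19 -0.00621. With the 10% limit they gave Rpl17 -0.139, Rpl29 -0.00338, Rplp0 -0.0374, Rpl22l1 0.00183 and Rps19 -0.00817, and without rescaling Rpl17 -0.0290, Rpl29 -0.00565, Rplp0 -0.0127 and Rpl36al -0.00521.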
